A study of Mus musculus with 12 samples.

Results

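The 8 genes described here encode the FOS family (Fos, Fosb, Fosl1 and Fosl2), the JUN family (Jun, Junb and Jund) and Atf3, out of 23420 genes in a count table of mRNA from mouse fibroblasts. They were chosen by name as one protein family, with their mRNA changes in these libraries already known. Beside them stand the BMAL1-bound regions within 50 kb of their starts, 22 of 4740. These regions were selected on BMAL1 ChIP reads of EtOH-treated cells. A gene's start is taken as the first base of its outermost exon in the count table. All 12 libraries came from embryonic fibroblasts of the 129/sv background that lack Per1, Per2, Nr1d1 and Nr1d2 and hold a transgene for PER2-ER. PER2 represses transcription in the circadian clock, and ER in such a fusion usually stands for the ligand-binding part of the estrogen receptor, which 4-hydroxytamoxifen (4-OHT) engages. Cells received 1 µM 4-OHT or its solvent, 0.1% ethanol (EtOH), for 4 h. Each treatment had 2 mRNA libraries, 2 BMAL1 ChIP-seq libraries and 2 ChIP inputs. The study asked how PER2 induction alters DNA binding by BMAL1, which activates clock genes as a dimer with CLOCK, and how it alters transcription. EtOH-treated and 4-OHT-treated cells carry the same knockouts and the same transgene. Cells without the transgene were not analysed here, so an effect of 4-OHT through PER2-ER and one by another route cannot be told apart. The sources used here do not give what drives the transgene.

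FOS and JUN proteins are basic leucine zipper (bZIP) factors that pair through their zippers to form AP-1. JUN proteins can pair with each other or with a FOS protein, whereas FOS proteins depend on a JUN partner to bind DNA. AP-1 binds a motif searched here as TGANTCA, in which N is any base, and the related cAMP-response motif TGACGTCA. In fibroblasts several of these genes are immediate early genes, switched on within minutes by serum and growth factors through MAP kinases and serum response factor. JUNB and the FOS-like proteins FOSL1 and FOSL2 give AP-1 other activities than the FOS-JUN pair, and JUND is known as a more constant member. ATF3 is a bZIP factor induced by stress that can repress or activate in pairs with JUN proteins.

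The promoters of the 3 genes whose mRNA changed are shown first, because 1 of them lies inside a BMAL1 region and the other 2 do not. Each sequence is the 250 bases before the RefSeq start on the gene's own strand, 5′ to 3′, from the GRCm38.p6 assembly, the RefSeq form of mm10. The table held a promoter for 7 of the 8 genes, all but Fosl1, and in 6 of these the start was that of the count table. Capitals would mark any of 5 motifs searched on both strands: the E-box CACGTG and its variant CACGTT, which BMAL1 and CLOCK can bind, the AP-1 motifs TGANTCA and TGACGTCA, and the CArG box of serum response factor.
Junb (chr8:84978749-84978998, minus strand): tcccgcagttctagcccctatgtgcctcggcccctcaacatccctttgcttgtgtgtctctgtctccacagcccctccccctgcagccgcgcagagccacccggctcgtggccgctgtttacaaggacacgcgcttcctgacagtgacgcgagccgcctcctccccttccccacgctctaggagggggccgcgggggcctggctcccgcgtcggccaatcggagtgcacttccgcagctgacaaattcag
Fosl2 (chr5:32136222-32136471, plus strand): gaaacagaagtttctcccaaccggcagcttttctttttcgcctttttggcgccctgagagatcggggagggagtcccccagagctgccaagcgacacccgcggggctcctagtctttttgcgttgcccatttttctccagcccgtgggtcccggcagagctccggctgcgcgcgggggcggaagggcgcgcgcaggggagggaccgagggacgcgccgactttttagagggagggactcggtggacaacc
Atf3 (chr1:191183334-191183583, minus strand): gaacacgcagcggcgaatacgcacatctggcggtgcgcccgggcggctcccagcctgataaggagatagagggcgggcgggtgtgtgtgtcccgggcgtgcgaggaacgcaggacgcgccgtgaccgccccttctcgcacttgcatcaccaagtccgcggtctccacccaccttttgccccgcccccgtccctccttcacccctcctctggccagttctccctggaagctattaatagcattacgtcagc
None of these 3 stretches held any of the 5 motifs, so no letter is in capitals. Of the 7 promoters only that of Jund held a match, CACGTT, which begins at −74 from its start. Among 32851 RefSeq promoter stretches of the same length, 6.02% held CACGTG, 3.85% CACGTT, 6.75% TGANTCA, 1.55% TGACGTCA and 1.47% a CArG box. The Junb, Atf3 and Fosl2 stretches contained 66.4%, 65.2% and 64.4% G and C, against a median of 52.4% over all promoters. All 250 bases of the Junb stretch lay inside a BMAL1 region. No base of the Fosl2 or Atf3 stretch did.

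BMAL1 regions near these genes also reach into 7 promoter stretches of other transcripts, and 3 of these pieces held a motif. The 3 are shown because they carry one. The other 4 pieces, at Cd3eap, Drap1, AI837181 and Ccdc85b, were 38 to 152 bases long and held none of the 5 motifs, and the Ccdc85b piece lies in the region with the highest EtOH level of the 22. Each printed sequence is the piece of a promoter stretch that lies inside the region, and capitals mark the matched motifs.
Hook2 promoter, in a region 11683 bp upstream of Junb (chr8:84990431-84990622, plus strand): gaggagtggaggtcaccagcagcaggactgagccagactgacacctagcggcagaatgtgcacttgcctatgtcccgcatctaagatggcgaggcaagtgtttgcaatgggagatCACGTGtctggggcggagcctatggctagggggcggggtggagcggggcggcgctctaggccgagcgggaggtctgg
Get3 promoter, in a region 46359 bp upstream of Junb (chr8:85025288-85025470, minus strand): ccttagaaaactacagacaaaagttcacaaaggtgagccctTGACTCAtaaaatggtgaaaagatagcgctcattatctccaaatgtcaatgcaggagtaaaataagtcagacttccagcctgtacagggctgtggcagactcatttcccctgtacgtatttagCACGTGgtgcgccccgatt
D730003I15Rik promoter, in the region 41030 bp upstream of Atf3 (chr1:191224363-191224453, plus strand): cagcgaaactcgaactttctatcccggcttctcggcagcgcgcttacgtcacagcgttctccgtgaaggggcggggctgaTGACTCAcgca
The Hook2 piece held 1 CACGTG. The Get3 piece (the gene is listed as Asna1 in the count table) held 1 CACGTG and 1 TGANTCA. The piece in the Atf3 region held 1 TGANTCA, written TGACTCA there. A match describes these letters and does not show a bound site, and the rest of each region was not searched because no genome of this build was used here.

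The mRNA libraries held 60267540 to 89695667 counted reads, and the ChIP and input libraries 12481308 to 33454366 reads. Nothing in the labels says that the replicates were separate cultures. The p-values rest on the spread of these libraries alone, and that spread may be technical. Of 10 fibroblast markers, Thy1 and Lum were at 0, 8 were tested and none of these was called. Their summed level was 17863 to 20045 CPM (counts per 1000000 counted reads) with EtOH and 19189 to 20373 with 4-OHT. Epithelial, myeloid and muscle markers summed to 3.07 to 30.9 CPM in every library. Endothelial markers summed to 2.46 to 2.78 CPM with EtOH and 1.12 to 1.26 with 4-OHT, with Cdh5 at 0 and the receptor Kdr called. The part of these markers in the results below was not tested. In bulk RNA, fewer expressing cells and less RNA per cell cannot be told apart.

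After 4 h of 4-OHT, Fosl2 and Atf3 mRNA fell, Junb mRNA rose, and the other 5 genes did not pass the test. All 8 were among the 13216 genes that passed the filter on low counts. A quasi-likelihood test in edgeR, adjusted by Benjamini-Hochberg over those genes, called 1 member higher, where 0.802% of all tested genes were called higher, and 2 lower, where 1.63% were. In either direction 2.44% of all tested genes were called. The median log2 change of the 8 was 0.09, against 0.00 over all tested genes, because 5 values were positive. In 7 of the 8 the EtOH and 4-OHT libraries did not overlap, which also held for 36.9% of all tested genes. Under each of 9 other settings Fosl2 and Atf3 were again called lower.

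**Figure D1:**
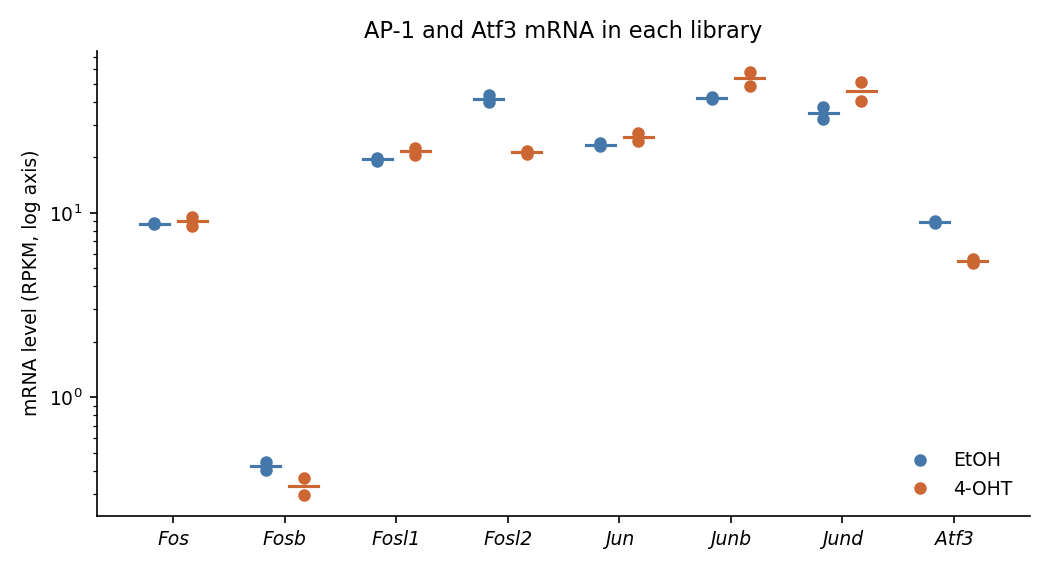
mRNA level of the 8 genes in each library, in RPKM (CPM divided by exon length in kilobases) on a log axis; points are libraries (2 per treatment) and bars are means. Fosl2 and Atf3 sit lower with 4-OHT, Junb and Jund higher, and Fosb lies far below the others.

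Fosl2, which encodes the FOS-like protein also called FRA2, gave the largest change of the 8. Its mRNA stood at 254 and 233 CPM in the EtOH libraries and at 123 and 128 CPM in the 4-OHT libraries. Both 4-OHT libraries were thus far below both EtOH libraries, and each pair lay close together. The level fell from 243.8 ± 14.9 CPM (SD, n = 2) to 125.2 ± 3.38 CPM, a log2 change of −0.96 (SE 0.07, edgeR adjusted p = 5.94e-15). This is 1.95-fold lower, and in order of adjusted p Fosl2 was number 8 of 13216 tested genes. The authors' deposited table gives a log2 fold change of −0.79 for Fosl2, with an adjusted p of 7.92e-43.

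The other FOS-family genes did not pass the test. Fosl1, which encodes FRA1, a growth-factor-responsive partner of JUN proteins, measured 32.8 and 34.0 CPM with EtOH and 35.2 and 38.5 CPM with 4-OHT. The groups did not overlap, but the log2 difference of 0.14 (SE 0.08) gave an adjusted p of 0.551 by edgeR. Fos, the classic immediate early gene, measured 18.2 and 18.4 CPM with EtOH and 17.9 and 19.9 CPM with 4-OHT. It was the only member whose groups overlapped (log2 difference 0.05, SE 0.08, edgeR adjusted p = 0.935). Fosb, whose product is another activating FOS protein, rested on 78 to 124 counts per library. It measured 1.52 and 1.69 CPM with EtOH and 1.12 and 1.37 CPM with 4-OHT (log2 difference −0.35, SE 0.18, edgeR adjusted p = 0.540). The 3′ end of Fosl1 overlaps the span of Ccdc85b on the other strand, and the deposited counts were made by strand.

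Junb was the JUN-family gene that passed the test. Its protein is often described as a weaker activator than JUN that can restrain it. Junb measured 78.3 and 76.6 CPM with EtOH and 90.4 and 107 CPM with 4-OHT. The 4-OHT libraries were both higher, and they lay further apart from each other than the EtOH pair. The level rose from 77.5 ± 1.21 CPM (SD, n = 2) to 98.7 ± 11.9 CPM, a log2 change of 0.35 (SE 0.07, edgeR adjusted p = 0.00115) or 1.28-fold. Without 4-OHT replicate 2 the log2 difference was 0.22 and the call was lost (edgeR adjusted p = 0.193). The authors' deposited table lists Junb with a log2 fold change of 0.26 and an adjusted p of 0.00239.

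Jund, the most steadily expressed JUN gene in many cells, had as large a difference as Junb but a wider spread. It measured 92.8 and 108 CPM with EtOH and 116 and 147 CPM with 4-OHT. The groups did not overlap, while the libraries within each treatment also stood apart. The means were 100.6 ± 11.1 and 131.6 ± 22.4 CPM (SD, n = 2), a log2 difference of 0.39 (SE 0.10), and edgeR's adjusted p was 0.0938. Jund was called higher under 5 of 9 other settings, with adjusted p from 2.61e-15 to 0.801 over all 9 (edgeR and DESeq2). Jun, the founding JUN gene, measured 73.4 and 76.2 CPM with EtOH and 78.6 and 86.8 CPM with 4-OHT (log2 difference 0.15, SE 0.07, edgeR adjusted p = 0.439). In 7 of the 8 genes, all but Atf3, 4-OHT replicate 2 was above 4-OHT replicate 1, as in 51.2% of all tested genes. That library was also the deepest of the 4, and the part of depth in these differences was not tested.

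Atf3 stood at 17.4 and 17.8 CPM in the EtOH libraries and at 11.2 and 10.6 CPM in the 4-OHT libraries. The libraries of each treatment were almost equal, and the treatments were well apart. The level fell from 17.6 ± 0.27 CPM (SD, n = 2) to 10.9 ± 0.40 CPM, a log2 change of −0.70 (SE 0.09, edgeR adjusted p = 1.84e-07) or 1.62-fold lower. Atf3 was number 50 of the tested genes in order of adjusted p. The spread of its change over the 9 other settings was −0.73 to −0.66.

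**Figure D2:**
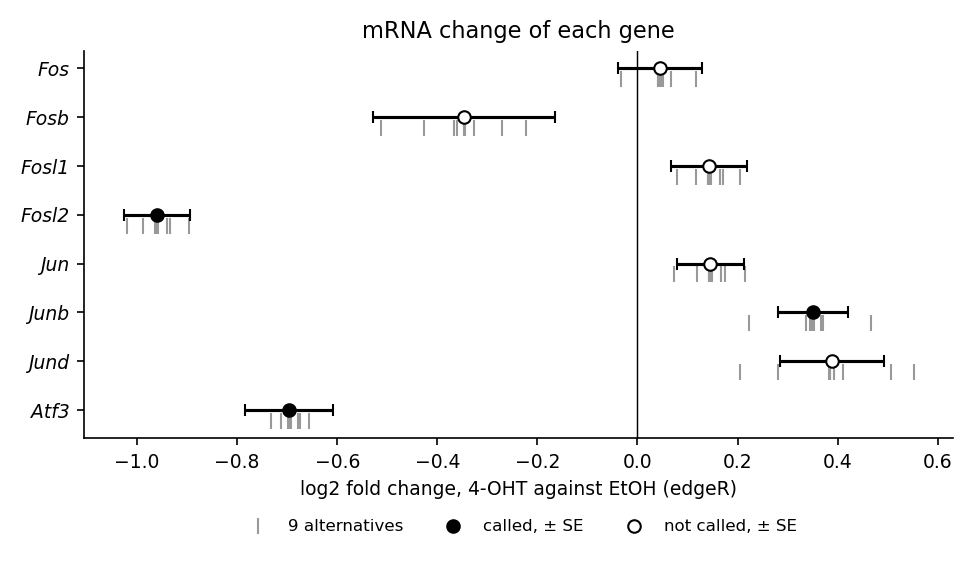
Log2 fold change of each gene with 4-OHT against EtOH from edgeR, as points with SE bars; filled points passed an adjusted p of 0.05, and grey ticks give the value under each of 9 other settings. Fosl2 and Atf3 lie left of 0 under every setting plotted, Junb and Jund lie right of 0, and the Fos values cross 0.

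Compared per length, in RPKM from the exon length in the count table, the order of the genes differed between treatments. With EtOH, Junb (42.1 ± 0.66 RPKM, SD, n = 2) and Fosl2 (41.6 ± 2.54 RPKM) were highest and their libraries overlapped. Jund followed at 35.0 RPKM, then Jun at 23.5, Fosl1 at 19.6, Atf3 at 8.92, Fos at 8.74 and Fosb at 0.425 RPKM, with no overlap between neighbours. With 4-OHT, Junb (53.7 ± 6.44 RPKM) and Jund (45.7 ± 7.79 RPKM) were highest and overlapped. Fosl2, at 21.4 RPKM, then overlapped with Fosl1 at 21.6 RPKM. Atf3 passed from just above Fos to below it, at 5.51 against 9.01 RPKM.

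Summed FOS-family mRNA was lower and summed JUN-family mRNA higher with 4-OHT. The 4 FOS-family genes summed to 71.7 and 68.9 RPKM with EtOH and to 50.5 and 54.2 RPKM with 4-OHT. The 3 JUN-family genes summed to 97.8 and 103 RPKM with EtOH and to 114 and 137 RPKM with 4-OHT. Neither sum overlapped between treatments. Only Fosl2 of the FOS family and Junb of the JUN family were called. The means of Fosl1 (19.6 RPKM with EtOH, 21.6 with 4-OHT) and Fos (8.74 and 9.01 RPKM) were not lower. Fosb stood at 0.425 and 0.330 RPKM. The ratio of JUN-family to FOS-family mRNA was 1.43 ± 0.09 (SD, n = 2) with EtOH and 2.39 ± 0.19 with 4-OHT. These sums are a description of genes chosen with results known and were not tested.

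Fosl2 made up a smaller share of FOS-family mRNA with 4-OHT. Fosl2 made up 59.1 ± 1.96% (SD, n = 2) of FOS-family RPKM with EtOH and 40.9 ± 0.96% with 4-OHT. The share of Fosl1 was 27.9% with EtOH and 41.3% with 4-OHT, and that of Fos 12.4% and 17.2%. The shares add up to the whole, so a smaller share of Fosl2 raises the others, and neither Fosl1 nor Fos mRNA itself passed the test. Fosb made up 0.605% and 0.629%, with overlapping libraries. Within the JUN family the shares of Junb (41.9% and 42.8%) and Jund (34.7% and 36.4%) overlapped between treatments, and that of Jun was 23.4% with EtOH and 20.8% with 4-OHT. Shares of mRNA say nothing about protein, which was not measured here.

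**Figure D3:**
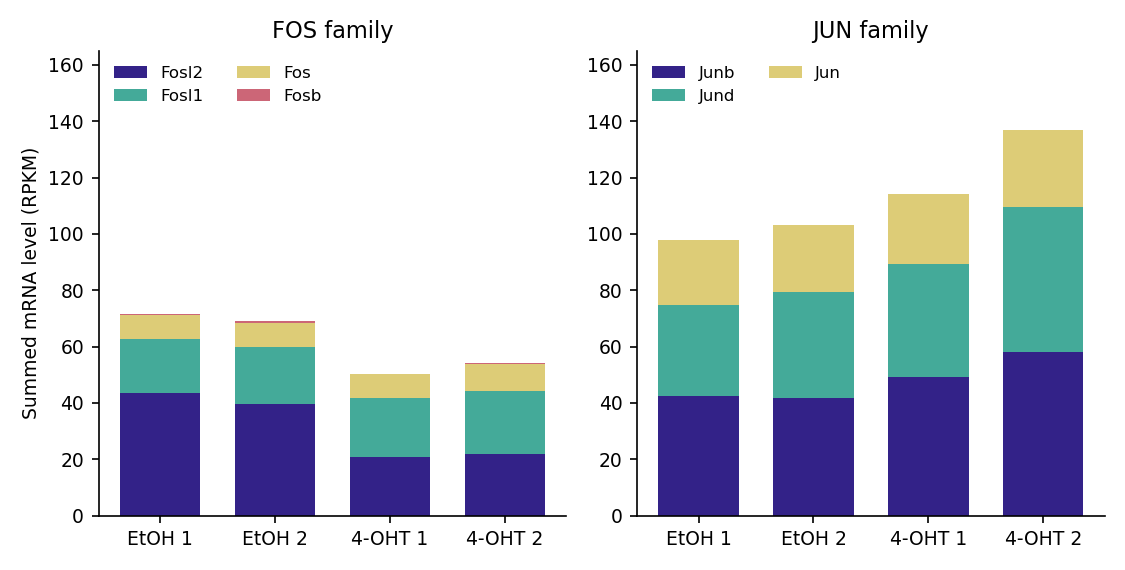
Stacked bars of summed mRNA level in RPKM for the FOS family (left) and the JUN family (right) in each of the 4 libraries, split by gene. The FOS bars are lower with 4-OHT, with a lower Fosl2 segment, and the JUN bars are higher with 4-OHT in all 3 segments.

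Other genes of these pathways were read from 5 lists. Beside the counts of each list, 0.802% of all tested genes were called higher and 1.63% lower. Among 27 tested bZIP genes outside the 8, 2 were called higher, none lower and 25 did not pass. Those higher were Cebpa (4.26 to 6.10 CPM, log2 change 0.52, SE 0.11, edgeR adjusted p = 0.00369) and Cebpd (6.53 to 8.73 CPM, log2 change 0.42, SE 0.11, edgeR adjusted p = 0.0136), both CCAAT-enhancer-binding factors of fat cell formation and inflammation. The most abundant that did not pass were Nfe2l1, Atf4 and Atf6, factors of the proteasome, amino acid and unfolded protein responses, with log2 differences of −0.09, −0.07 and −0.09. The median log2 difference of this list was −0.01.

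None of 25 tested genes upstream of AP-1, which are MAP kinases, growth factor receptors and serum response factor partners, was called. Among the most abundant, the receptor Pdgfrb and the ETS factor Elk3 had log2 differences of 0.08 and −0.05, and the median of the list was −0.02. Of 15 genes that feed back on MAP kinases 1 was called in each direction. Dusp6, a MAP kinase phosphatase, rose from 23.2 to 28.3 CPM (log2 change 0.29, SE 0.08, edgeR adjusted p = 0.0352). Errfi1, an inhibitor of the EGF receptor, fell from 136.9 to 100.4 CPM (log2 change −0.45, SE 0.06, edgeR adjusted p = 2.70e-06). Spred1, Dusp1 and Dusp7, the most abundant of those that did not pass, had log2 differences of −0.02, −0.22 and −0.09.

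Of 24 tested AP-1 target genes, none was called higher, 1 was called lower and 23 did not pass. The values of 18 were positive, with a median log2 difference of 0.10 against 0.00 over all tested genes. The most abundant that did not pass were the collagen cross-linker Lox, the metalloproteinase Mmp14 and the secreted protein Spp1, with log2 differences of 0.10, 0.00 and 0.14. Of 20 stress genes that act upstream of or together with Atf3, 1 was called lower and none higher. It was Gadd45g, a growth arrest gene, which fell from 42.3 to 28.5 CPM (log2 change −0.56, SE 0.08, edgeR adjusted p = 2.23e-06). The chaperone Hspa5, the activator Atf4 and the Krüppel-like factor Klf6 had log2 differences of −0.01, −0.07 and −0.11, and the list's median was 0.01.

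The genes whose pattern over the 4 mRNA libraries lay closest to that of Atf3 were Tgfbr3, Nrn1 and Phf17. Likeness was the Euclidean distance of centred log2 CPM, which was 0.023, 0.040 and 0.043 for these. Tgfbr3, a co-receptor for TGF-beta, had 141 ± 3.27 CPM (SD, n = 2) in EtOH cells and 87.2 ± 1.97 CPM in 4-OHT cells. The genes closest to Junb were Tmem180, Gm996 and Paqr7, at distances of 0.027, 0.037 and 0.046. Their means in EtOH cells were 2.01, 1.99 and 7.59 CPM, far below the 77.5 CPM of Junb. Within the family, Fosl2 ranked 120 in likeness to Atf3 and Jund ranked 400 in likeness to Junb. With 4 libraries, many genes share such a pattern.

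All 8 genes had a BMAL1 region within 50 kb of their start, as did 45.5% of the 13197 tested genes with a position, and 5 had one within 10 kb, as did 27.1%. Junb had 9 regions and Fosl1 3. Fosb, Fosl2, Jun and Jund had 2 each, and Fos and Atf3 had 1 each. As many regions as at Junb were found at 23 tested genes, or 0.174%. Junb also had 8 other gene starts within 50 kb, where the median gene had 2 and 4.75% had as many, and 4 of its 9 regions lay nearer to another gene's start. Of the 22 regions 13 were nearest to a member's start and 9 nearer to that of another gene. Of the 22, 8 touched an exon, 3 lay in introns and 11 were intergenic. At the edge of the window, the region just inside was 49279 bp from Fosb (22.4 reads per 10000000 library reads, RP10M, with EtOH) and the one just outside was 50083 bp from Fosb (17.5 RP10M).

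The regions were called by the authors on EtOH-treated cells, so a high EtOH level is part of how they were chosen, and the fall from EtOH to 4-OHT is given as a description. By edgeR, 21 of the 22 were called lower with 4-OHT and none higher, against 93.8% of all 4740 regions called lower. The median log2 difference was −1.68 over the 22 and −1.66 over all regions, with a range from −2.75 to −0.70 over the 22. In 21 of the 22 both 4-OHT libraries were below both EtOH libraries, as in 98% of all regions. The size of these values rests on scaling by library totals. With scaling on the regions themselves the median over all regions became 0.02. Of the 22, 1 was then called lower, that 9346 bp from Fosl1, and of all 4740 regions 228 were. A fit that subtracts the change of the inputs called 14 of the 22 lower and 2395 of all 4740.

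**Figure D4:**
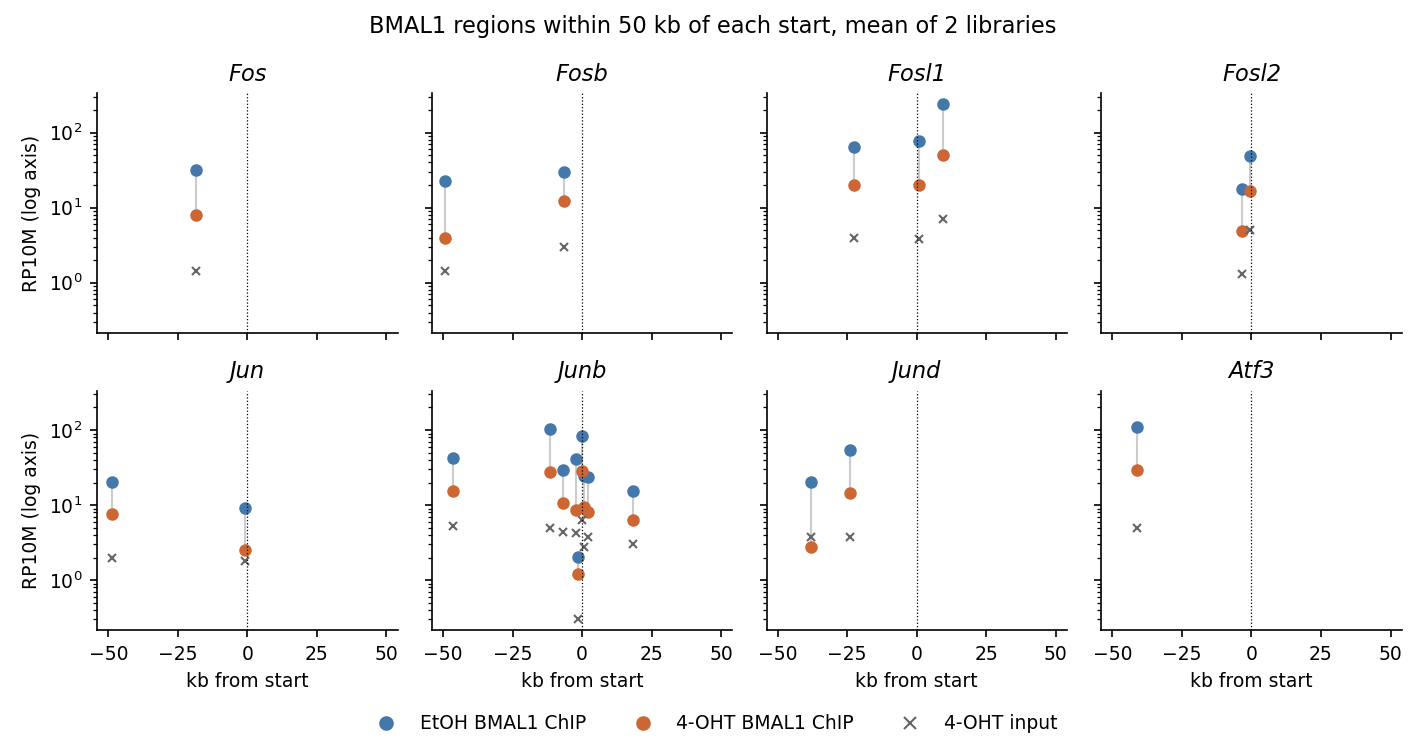
BMAL1 ChIP level of each region within 50 kb of a start, in RP10M on a log axis, against distance from the start in kb (upstream to the left); points are means of 2 libraries and crosses are the 4-OHT inputs. The 4-OHT point lies below the EtOH point at each of the 22 regions, and Junb has 9 regions of which 6 are within 10 kb.

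A BMAL1 region touched the start of Junb, the gene that rose, and of no other member. The nearest region lay 418 bp from the start of Fosl2, which fell. It lay 889 and 967 bp from those of Fosl1 and Jun, which were not called. The region at the Junb start (chr8:84978608-84979011, mm10) covers the whole Junb promoter stretch printed above and the first bases of its only exon. It measured 85.9 and 80.5 RP10M in the EtOH ChIP libraries and 28.4 and 28.0 in the 4-OHT ones, and 4.25 to 7.17 in the 4 inputs. With 4-OHT it was therefore lower than with EtOH (log2 difference −1.56, SE 0.22) and still above its input. The ratio of 4-OHT ChIP to 4-OHT input, which the choice of regions did not use, was 4.16-fold (log2 2.06, SE 0.30, edgeR adjusted p = 2.08e-08).

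Around Junb the other regions were mostly weaker. The region at the Hook2 start, which holds the CACGTG shown above, was the strongest of the 9, with 107 and 99.8 RP10M with EtOH and 29.1 and 25.6 with 4-OHT (4.96-fold over the 4-OHT input, edgeR adjusted p = 2.35e-09). Regions 629 bp and 2001 bp downstream of the start, the first inside the Junb exon, went from 24.7 to 9.32 and from 24.0 to 7.98 RP10M in their means. Regions 2335 bp and 6902 bp upstream went from 40.8 to 8.70 and from 29.6 to 10.5 RP10M. The region at Asna1, 46359 bp upstream, went from 43.1 to 15.4 RP10M and that in an Rnaseh2a intron, 18421 bp downstream, from 15.6 to 6.41 RP10M. A deposited region of only 5 bp, 1598 bp upstream, held 2.05 ± 1.29 RP10M (SD, n = 2) with EtOH and was the region not called.

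Fosl2 and Atf3, the genes that fell, had regions outside their printed promoter stretches. A region 418 bp upstream of Fosl2 (chr5:32135529-32136054) measured 51.1 and 47.1 RP10M with EtOH and 18.9 and 14.5 with 4-OHT. The 4-OHT libraries were again both lower (log2 difference −1.58, SE 0.28) and 3.01-fold above their input (edgeR adjusted p = 0.000186). A weaker region 3346 bp upstream of Fosl2 held 15.6 and 20.4 RP10M with EtOH and 4.37 and 5.31 with 4-OHT. The region assigned to Atf3 lies 41030 bp upstream (chr1:191224363-191224864), in no gene of the count table, and spans the start of the RefSeq transcript D730003I15Rik. It measured 109 and 114 RP10M with EtOH and 32.0 and 27.5 with 4-OHT, which placed it at rank 403 of 4740 by EtOH level. It stood 5.39-fold above the 4-OHT input (log2 2.43, SE 0.31, edgeR adjusted p = 3.45e-10). No region was found within 10 kb of Atf3.

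Genes without an mRNA call also had regions that were lower with 4-OHT. The strongest of all 22 lay at the start of Ccdc85b, 9346 bp downstream of the Fosl1 start (chr19:5457044-5457715), with 265 and 211 RP10M with EtOH and 49.5 and 50.2 with 4-OHT. It was 6.71-fold above the 4-OHT input (edgeR adjusted p = 2.88e-15). In the first part of Fosl1 itself an intronic region 889 bp from the start (chr19:5448587-5448920) measured 73.3 and 81.1 RP10M with EtOH and 19.6 and 20.3 with 4-OHT. At Drap1, 22681 bp upstream of Fosl1, the means were 63.4 ± 22.4 and 20.2 ± 2.84 RP10M (SD, n = 2). Fos had a region 18486 bp upstream (31.1 and 32.9 RP10M with EtOH, 7.28 and 8.69 with 4-OHT). Its log2 difference was −1.97, and −0.96 with the change of the inputs subtracted, where it was not called. Fosb had one 6665 bp upstream (34.8 and 24.4, then 13.1 and 11.6).

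Jund had no region nearest to its own start. Its 2 regions lay in an intron of Lsm4, 23901 bp upstream (55.0 RP10M in the mean with EtOH, 14.6 with 4-OHT), and in an exon of Pgpep1, 38121 bp upstream (20.3 and 2.78 RP10M). Jun had a weak region 967 bp upstream, with 9.63 and 8.51 RP10M with EtOH and 2.18 and 2.90 with 4-OHT. A second one, 48643 bp upstream, held 20.7 and 19.8 RP10M with EtOH and 6.55 and 8.69 with 4-OHT. Its EtOH inputs held no read and its 4-OHT inputs 1.60 and 2.39 RP10M. The inputs of that region differed at an unadjusted p of 0.00179 (edgeR), the only one of the 22 with p below 0.05, where 4.6% of all regions had such a p. After adjustment no region of the 4740 differed between inputs.

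With 4-OHT, 18 of the 22 regions were still above their input by edgeR, where 80.6% of all regions were. The median ratio was 3.08-fold over the 22 and 3.68-fold over all regions. Those that did not pass were the region 49279 bp from Fosb (2.44-fold, adjusted p = 0.0590), that 967 bp from Jun (1.67-fold, adjusted p = 0.346), the 5 bp region near Junb (2.46-fold, adjusted p = 0.342) and that at Pgpep1 near Jund (0.784-fold, adjusted p = 0.586), all by edgeR. Without 4-OHT replicate 2 and its input, the log2 ratios of the 22 ran from −0.85 to 4.34. The highest was that of the 5 bp region near Junb, which then rested on 2 ChIP reads and 0 input reads with 4-OHT. The median log2 ratio over all regions was then 1.98, against 1.88 with all libraries. Regions called lower with 4-OHT lay near Junb, Fosl2 and Atf3, but 93.8% of all 4740 regions were called lower. The regions were chosen on EtOH ChIP reads, so these falls are given as a description. In the same treatment Junb mRNA was higher and Fosl2 and Atf3 mRNA lower.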

How the data were processed

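Per the file headers, the authors made the read counts per gene with featureCounts v1.5.0-p1, by strand, on mm10. For each ChIP and input library they deposited the count of reads in 4740 regions named as MACS2 peaks of the control. The sources used here name no aligner. Each deposited region also carries the caller's fold enrichment, −log10 of p and q, and score, which entered no test. A deposited signal table, named RPKM, equals 5 plus reads per 10000000 library reads and gave the library totals. The authors' deposited comparison table holds log2 fold changes, p-values and a test score, and per the submitters' processing notes DESeq2 was used.

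Counts per gene went into edgeR 4.0.16 under R 4.3.3 (TMM factors, default expression filter, robust quasi-likelihood) and counts per region likewise, with library totals and no further scaling. Calls are at a Benjamini-Hochberg adjusted p below 0.05 over all genes or regions. Scripts were tested on simulated data. Alternatives included DESeq2 1.42.0, other scalings, a replicate block and leaving out each replicate.

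The 8 genes, the lists and the tests were chosen with earlier results of these data known. Named genes are the 8, every called gene and the 3 most abundant others of each list, and the 3 genes most like Atf3 and Junb. Some genes that this rule names are not reported here. Hook2, Get3, Cd3eap, AI837181, Ccdc85b, Drap1, Pgpep1, Lsm4, Rnaseh2a, Asna1 and D730003I15Rik are named only as the place of a region.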

Additional observations from a re-analysis of the deposited data

How the results depend on the processing

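Fosl2 (−1.02 to −0.90) and Atf3 (−0.73 to −0.66, log2) were called lower under all 9 alternatives, so the count called lower was 2 throughout. The count called higher, 1 in the fit reported, was 2 with no filter on low counts and 3 with a crossed replicate block. Leaving out 1 replicate gave 0 to 2 called higher. Junb lost its call without 4-OHT replicate 2 (adjusted p = 0.193), and Fos then had a log2 difference of −0.034 (leave-one-out range −0.034 to 0.12). Over all genes, 106 were called higher and 216 lower. The counts were 62 and 183 with DESeq2, 60 and 152 with the block, 518 and 611 with the crossed block, and 40 to 196 and 140 to 247 on leaving out 1 replicate. The labels do not say what a replicate number shares. With the replicate number as a block, 2 genes were called higher, Junb and Jund. Deviations of same-numbered mRNA libraries correlated at −0.17 (ChIP 0.02) over 2 pairs, so the crossed pairing was added after seeing the data. In it Jun was called too (adjusted p = 0.0249).

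Scaling by TMM factors over the regions, which centres them on no change, left 1 region called lower and 1 above input. Over all 4740 regions, 228 were then called lower and 66 higher, against 4445 and 0, and 232 above input, against 3822. DESeq2 called 3329 lower and a fit that subtracts the input change 2395, of which 19 and 14 were among the 22. In the latter fit the Fos region had a log2 difference of −0.96 (adjusted p = 0.264). Under TMM the log2 differences between treatments became positive at Fosb (0.44 at 6665 bp), Fosl1 (0.10 at 22681 bp), Fosl2 (0.12 at 418 bp), Jun (0.32 at 48643 bp) and 7 Junb regions (0.42, 0.12, 0.26, 0.14, 0.92, 0.23 and 0.17). That of the 5 bp Junb region was also 0.35 on subtracting the input and 0.036 without EtOH replicate 1 (leave-one-out range −1.29 to 0.036). Log2 ratios to input became negative under TMM at Fosb (−0.58), Fosl2 (−0.21 and −0.31), Jun (−1.12 and −0.062) and 7 Junb regions (−0.37, −0.78, −0.42, −0.47, −0.68, −0.80 and −0.31). Leaving out 1 replicate gave 11 to 18 regions above input, lowest without 4-OHT replicate 2, where the Jun region at 967 bp was at −0.13 (leave-one-out range −0.13 to 1.24) and 2109 of all regions were above input. A window of 10 kb left 5 genes and 12 regions, and one of 100 kb held 36 regions. The causes were not tested.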
